A study of Mus musculus with 4 samples.

Results

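Zinc finger genes that carry the mouse name Zfp followed by a number were followed in antigen-specific CD4 T cells of mice, sorted into Tfh cells (T follicular helper cells, the ones that support B cells in lymphoid follicles) and into activated cells without the Tfh markers, called non-Tfh. Of 405 genes of this name in the count tables, 277 had at least 20 raw counts in each of the 4 libraries and form the set described here. The RNA decay factor Zfp36 and its relatives Zfp36l1, Zfp36l2 and Zfp36l3, which bind RNA with another type of finger, were left out by name. The members were thus chosen by their raw count in every library and by their name, not by the difference between the groups. The set cannot hold a gene that is silent in one population, so as a whole it is set beside the 9746 genes of any name that met the same minimum.

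The Tfh cells were CD44hi CXCR5+ PD-1+ and the non-Tfh cells were CD44hi CXCR5- PD-1-, all Thy-1.1+ donor T cells bearing the ovalbumin-specific OT-II receptor. The T cells had been transferred into C57BL/6 mice that were immunised under the skin with ovalbumin coupled to nitrophenol, and they were recovered on day 8 from inguinal lymph nodes that had been pooled. Both populations therefore carried the transgenic receptor and had met the same antigen, and neither is a resting or unimmunised control. Each group had 2 stranded total RNA libraries, named T32 and T53 in the labels, which do not say whether these numbers mark an animal, a pool or a day. The p-values therefore measure only the spread between these samples, which may be technical.

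The smallest library, Tfh T53, held 5725358 counts and the largest, non-Tfh T32, held 13360563, so that levels in CPM, which are counts scaled to a common library total, moved in steps of 0.0746 to 0.175 per count. The gates showed in the RNA, with Cxcr5 at 748 and 713 CPM in Tfh T32 and T53 and at 52.7 and 56.1 CPM in non-Tfh T32 and T53. The 6 T cell markers summed to 7492.6 to 8610.2 CPM in Tfh and 7056.0 to 7783.9 CPM in non-Tfh libraries. The 7 B cell markers summed to 191 to 199 CPM in Tfh and 129 to 160 CPM in non-Tfh libraries, nearly all of it Ighm, and 4 of the 7 were under 1 CPM in every library. The 2 NK markers summed to 44.6 to 57.4 CPM in Tfh and 12.4 to 19.8 CPM in non-Tfh libraries, all from Klrb1c, with Ncr1 at 0 throughout. The 7 myeloid and dendritic markers summed to 4.95 to 5.60 CPM in Tfh and 5.07 to 12.4 CPM in non-Tfh libraries, with Siglech at 0. CD8 T cell markers summed to 3.85 to 6.21 CPM in Tfh and 3.60 to 4.33 CPM in non-Tfh libraries, erythroid markers to 0 and to at most 0.113 CPM, and stromal and endothelial markers, nearly all from Pecam1, to 232 to 237 CPM and 212 to 229 CPM. The part of these cell types in the values below was not tested.

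Most Zfp-named proteins carry C2H2 zinc fingers, short loops in which a pair of cysteines and a pair of histidines hold a zinc ion and which, in tandem arrays, read DNA bases. Many of the mammalian ones also carry a KRAB domain, which recruits the corepressor Trim28 and with it the histone methyltransferase Setdb1 to silence transposable elements and some genes. KRAB genes multiplied by tandem duplication and lie in clusters on the chromosomes. Other members have no KRAB domain and act as activators, as parts of chromatin complexes or as RNA-binding proteins, and a few have known roles in lymphocytes.

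The Zfp-named genes as a set were at nearly the same level in Tfh and non-Tfh cells. Their counts made up 0.957 and 1.02% of the Tfh T32 and T53 libraries and 0.983 and 1.11% of the non-Tfh T32 and T53 libraries. Scaled with edgeR's trimmed mean of M-values (TMM), their summed level was 9915.9 and 10227.0 CPM in the Tfh libraries and 9797.7 and 10807.8 CPM in the non-Tfh libraries, and the groups overlapped. The median log2 fold change of Tfh over non-Tfh was -0.018 over the 277 members, with quartiles of -0.16 and 0.16, and 130 values were positive and 147 negative. It was 0.0029 over the genes with the same minimum, with quartiles of -0.18 and 0.21, and -0.0053 over all 11702 genes tested. In bulk RNA, a change in the number of cells that express a gene and a change in RNA per cell cannot be told apart.

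In edgeR's quasi-likelihood test, adjusted by Benjamini and Hochberg's method over the whole table at a threshold of 0.05, 9 of the 277 members passed, 5 higher and 4 lower in Tfh cells. This is 3.25% of the members, against 8.49% of all genes tested and 7.29% of the genes with the same minimum count. Higher in Tfh cells were 4.47% of all genes tested and 4.19% of those with the same minimum, and lower were 4.02% and 3.1%. At an unadjusted p under 0.05 there were 37 members, where 22% of all genes tested passed. The 2 groups did not overlap in CPM for 72 members with Tfh above and 71 with Tfh below, while over all genes tested 26.6% lay apart with Tfh above and 25.6% with Tfh below. For non-overlap, the counts of members are near that background.

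Changes of members were also small in size. Only 5 of them, or 1.81%, differed by at least 2-fold between the groups, against 5.11% of genes with the same minimum and 9.98% of all genes tested. At least 1.5-fold was reached by 15 members, or 5.42%, against 13.6% of genes with the same minimum. The median absolute log2 fold change was 0.16 for the members and 0.19 for the genes with the same minimum. Between the single libraries T32 and T53, the log2 ratio had a median size of 0.15 within Tfh and 0.18 within non-Tfh for the members, and of 0.16 and 0.19 for the genes with the same minimum. The members were expressed at a lower level than the genes they are set against, with a median of 21.4 CPM against 35.3 CPM and, per kilobase of exon, of 4.64 CPM against 8.32 CPM, and their median standard error was 0.17 against 0.16. No test of the members against the other genes was made. Within the T32 pair of libraries the median log2 ratio of the members was 0.03 and within the T53 pair it was -0.06, and 186 of the 277 had the same sign in both.

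**Figure D1:**
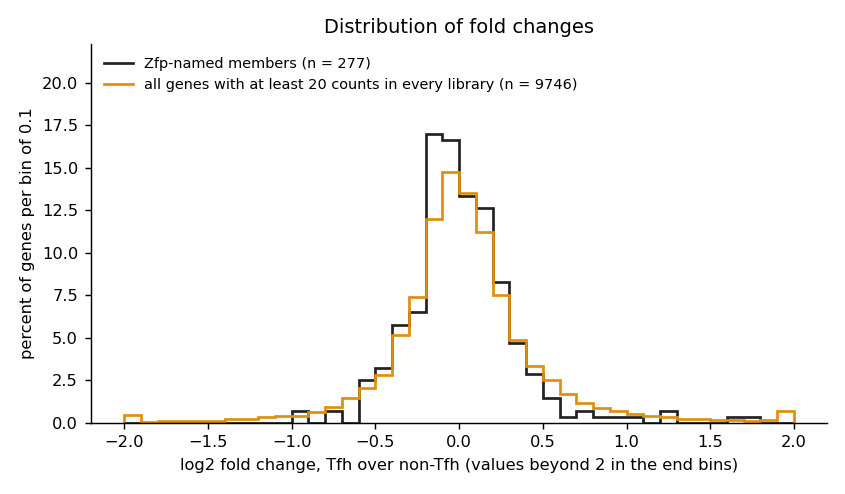
Share of genes in percent (vertical axis) per bin of 0.1 of log2 fold change, Tfh over non-Tfh (horizontal axis), for the 277 Zfp-named members (black) and the 9746 genes of any name with at least 20 counts in every library (orange). Both lines are centred near 0, and changes of at least 2-fold, which are 1 or more in size on this scale, make up 1.81% of the members and 5.11% of the other line.

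**Figure D2:**
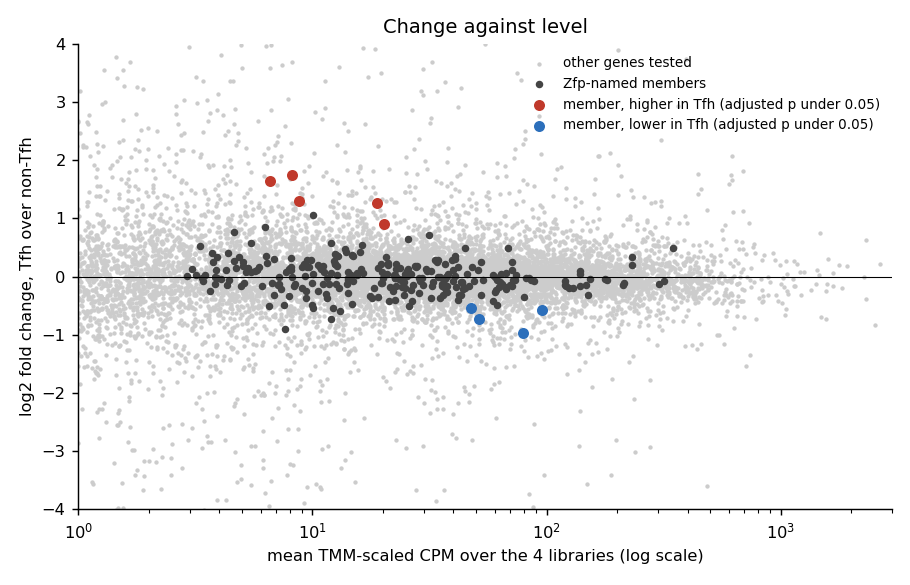
Log2 fold change of Tfh over non-Tfh (vertical axis, shown from -4 to 4) against the mean TMM-scaled CPM over the 4 libraries (log axis). Grey points are other genes tested, dark points the members, red points the 5 members higher and blue points the 4 members lower in Tfh cells. The 5 red points lie between 6.59 and 20.3 CPM, and the 4 blue points between 47.5 and 96.0 CPM.

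The 5 members that rose in Tfh cells were Zfp870, Zfp316, Zfp518b, Zfp523 and Zfp839. The largest change was that of Zfp870 (ENSMUSG00000095325, chr17:32879219-32891642, minus strand, GRCm38), a KRAB-like gene with 10 finger motifs. It had 13.2 and 12.1 CPM in Tfh T32 and T53, against 4.33 and 3.15 CPM in non-Tfh T32 and T53. Both Tfh libraries lay far above both non-Tfh libraries, with a log2 fold change of 1.74 ± 0.26 (SE, n = 2 each, adjusted p = 0.0126 by edgeR's quasi-likelihood test). Zfp316 (ENSMUSG00000046658, chr5:143249697-143270022, minus strand), also with a KRAB-like match and 15 finger motifs, had 8.98 and 11.02 CPM in Tfh T32 and T53, against 3.21 and 3.15 CPM in non-Tfh T32 and T53. The non-Tfh libraries were almost equal and the Tfh libraries stood apart from them, with a log2 fold change of 1.64 ± 0.26 (SE, adjusted p = 0.0161 in the same edgeR fit).

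Zfp523 (ENSMUSG00000024220, chr17:28177129-28205886, plus strand) is the ortholog of human ZNF76, a close relative of the promoter activator ZNF143. It had 26.6 and 26.8 CPM in Tfh T32 and T53, against 11.3 and 10.8 CPM in non-Tfh T32 and T53. The replicates of each group were nearly equal, and the adjusted p of 0.00703 in the edgeR fit was the lowest of the members, for a log2 fold change of 1.27 ± 0.16 (SE). Zfp518b (ENSMUSG00000046572, chr5:38668484-38684826, minus strand), whose human ortholog associates with the histone methyltransferase G9a, had 10.99 and 13.99 CPM in Tfh T32 and T53, against 5.15 and 4.95 CPM in non-Tfh T32 and T53. Its groups did not overlap, and its log2 fold change was 1.29 ± 0.24 (SE, adjusted p = 0.0252 by edgeR). Zfp839 (ENSMUSG00000021271, chr12:110850253-110869996, plus strand) had 22.3 and 30.8 CPM in Tfh T32 and T53, against 13.7 and 14.4 CPM in non-Tfh T32 and T53. The spread within Tfh was the widest of the 5 relative to the difference, and the log2 fold change was 0.91 ± 0.20 (SE, adjusted p = 0.0446 by edgeR).

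Zfp523 and Zfp870 passed with any single library left out, with edgeR adjusted p from 0.0102 to 0.0258 and from 0.0116 to 0.0453. The other 3 did not pass without Tfh T53, where only 3 members did in all: over the 4 fits the adjusted p ran from 0.0286 to 0.0681 for Zfp316, from 0.0454 to 0.126 for Zfp518b and from 0.032 to 0.221 for Zfp839, which also missed without non-Tfh T32 or non-Tfh T53.

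The 4 members that fell in Tfh cells were Zfp652, Zfp318, Zfp281 and Zfp280b, none of them with a KRAB-like match. Zfp652 (ENSMUSG00000075595, chr11:95712673-95835115, plus strand) encodes the mouse form of a repressor that in human cells binds the corepressor CBFA2T3. It had 56.5 and 50.5 CPM in Tfh T32 and T53, against 92.2 and 119 CPM in non-Tfh T32 and T53. Both Tfh libraries lay below both non-Tfh libraries, with a log2 fold change of -0.98 ± 0.16 (SE, n = 2 each, adjusted p = 0.0167 by edgeR's quasi-likelihood test). Zfp318 (ENSMUSG00000015597, chr17:46383731-46420920, plus strand), known in mouse B cells for the transcript choice that lets IgD be made beside IgM, had 33.6 and 44.1 CPM in Tfh T32 and T53, against 63.0 and 65.3 CPM in non-Tfh T32 and T53. The non-Tfh libraries were close together and the Tfh libraries below them, with a log2 fold change of -0.74 ± 0.16 (SE, adjusted p = 0.0420 by edgeR).

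Zfp281 (ENSMUSG00000041483, chr1:136624901-136630053, plus strand), a regulator of pluripotency in mouse embryonic stem cells, had 81.7 and 72.4 CPM in Tfh T32 and T53, against 107 and 123 CPM in non-Tfh T32 and T53. Zfp280b (ENSMUSG00000049764, chr10:76032650-76043234, plus strand) had 39.6 and 38.0 CPM in Tfh T32 and T53, against 54.3 and 58.1 CPM in non-Tfh T32 and T53. Neither pair of groups overlapped, but the differences were under 1.5-fold, with log2 fold changes of -0.57 ± 0.13 for Zfp281 and -0.53 ± 0.12 for Zfp280b (SE, each with an adjusted p of 0.0492 in the edgeR fit, just inside the threshold).

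In the 4 edgeR fits that left out a library, 1 to 2 members were called lower, and the count of members called higher ran from 2 to 7. The adjusted p then ran from 0.00508 to 0.0663 for Zfp652, which missed without Tfh T53, and from 0.0366 to 0.178 for Zfp318, which passed only without Tfh T53. It ran from 0.0389 to 0.281 for Zfp281, which passed only without non-Tfh T32, and from 0.0737 to 0.273 for Zfp280b, which missed in all 4. Zfp652 shares exon bases with Abi3 on the opposite strand, and Abi3 had 262 and 147 counts in Tfh T32 and T53 and 194 and 158 counts in non-Tfh T32 and T53. The log2 fold change of Abi3 was 0.56 (adjusted p = 0.129 by edgeR), opposite in sign to that of Zfp652. On the same strand, Zfp652 shares exon bases with Phospho1, which had 0 and 1 counts in Tfh T32 and T53 and 0 and 0 counts in non-Tfh T32 and T53. Zfp870 and Zfp523 also share exon bases with a gene on the opposite strand, CT033772.1 and AC126937.2, for which no counts were found. In all, 69 members have such an overlap, of which 3 were called (4.35%), beside 8.49% of all genes tested. Whether the counting used strand is not given in the sources used here, so these levels are less certain.

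**Figure D3:**
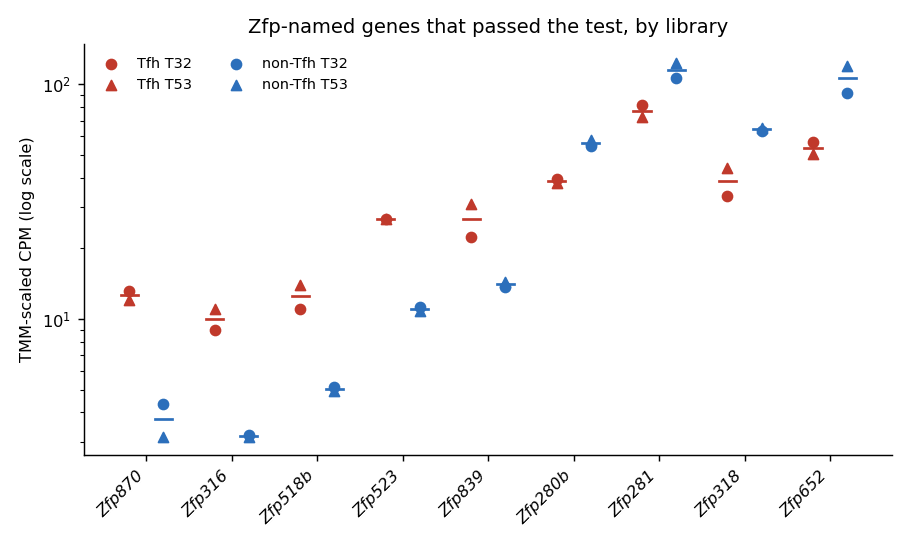
TMM-scaled CPM (log axis) of the 9 Zfp-named genes that passed the test, in each library: Tfh in red and non-Tfh in blue, T32 as circles and T53 as triangles, with the group mean as a bar. For every gene shown, the 2 red points lie on the same side of both blue points, and for Zfp523 each pair of points almost coincides.

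Upstream sequence of the called genes was read from the RefSeq promoter table (GRCm38.p6), which held 233 of the 277 members and 8 of the 9 called ones. Exon bases of any annotated gene were cut away, and windows that were exonic throughout (Zfp523) or whose downstream bases were not found in an annotated transcript (Zfp280b) are not shown, nor is that of Zfp652, which lies inside the gene. Capitals mark motif letters found on either strand, and each line runs 5′ to 3′ on the strand of the gene. The lines show the 3 genes that rose and the 2 that fell whose windows remain, so that the stretches can be compared. Zfp316 is chr5:143270023-143270074 (minus strand), Zfp518b is chr5:38684827-38685076 (minus), Zfp839 is chr12:110850029-110850252 (plus), Zfp281 is chr1:136624651-136624900 (plus) and Zfp318 is chr17:46383516-46383730 (plus).
Zfp316: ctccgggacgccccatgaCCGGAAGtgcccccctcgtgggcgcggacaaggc
Zfp518b: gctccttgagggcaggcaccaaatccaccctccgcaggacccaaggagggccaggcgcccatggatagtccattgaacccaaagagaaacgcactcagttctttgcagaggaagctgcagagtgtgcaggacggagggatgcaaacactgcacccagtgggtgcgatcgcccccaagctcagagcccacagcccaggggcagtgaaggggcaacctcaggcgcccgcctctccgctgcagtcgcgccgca
Zfp839: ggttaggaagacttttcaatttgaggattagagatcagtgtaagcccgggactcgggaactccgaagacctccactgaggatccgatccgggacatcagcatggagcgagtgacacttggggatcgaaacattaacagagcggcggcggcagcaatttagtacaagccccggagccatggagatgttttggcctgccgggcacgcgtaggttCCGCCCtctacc
Zfp281: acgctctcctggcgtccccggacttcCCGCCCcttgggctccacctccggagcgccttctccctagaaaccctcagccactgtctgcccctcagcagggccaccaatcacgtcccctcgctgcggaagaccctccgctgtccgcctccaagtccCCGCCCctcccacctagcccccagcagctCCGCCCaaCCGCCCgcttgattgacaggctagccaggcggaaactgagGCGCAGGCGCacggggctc
Zfp318: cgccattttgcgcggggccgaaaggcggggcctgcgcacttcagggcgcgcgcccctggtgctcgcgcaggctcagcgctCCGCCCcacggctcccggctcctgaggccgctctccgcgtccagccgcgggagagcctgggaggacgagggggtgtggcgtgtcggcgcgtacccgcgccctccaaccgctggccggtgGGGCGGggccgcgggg
The capitals in Zfp316 are an ETS core (CCGGAAG). Zfp518b held none of the 10 motifs searched. Zfp839 held a GC box (GGGCGG, here on the other strand). Zfp281 held several on that strand and an NRF1 motif, and Zfp318 held GC boxes in both orientations. In the uncut windows of 250 bases, a GC box stood in 2 of the 4 genes that rose and 3 of the 4 that fell, beside 35.4% of all genes in the promoter table. These counts include the windows of Zfp523, Zfp280b and Zfp652, which are not shown, and that of Zfp280b is among the 3.

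The motifs were matched on both strands in the 250 bases before the start, and no motif contained the letters of another. The ETS core stood in 18.5% of the 233 members with a promoter, against 7.83% of the 27025 genes in the table, and the NRF1 motif in 8.15% against 4.23%. The GC box stood in 43.3% of members against 35.4% of the table, the CRE (TGACGTCA) in 3.86% against 1.77%, the Zfp143 core (ACTACAA) in 5.15% against 3.27% and the YY1 motif (AAGATGGCG) in 1.29% against 0.71%. The AP-1 motif (TGANTCA) stood in 3% of members against 7.82% of the table. The E-boxes CAGCTG and CACGTG stood in 13.3% against 14.7% and in 7.3% against 6.86%, and the RUNX core (ACCACA) in 14.2% against 15.9%. The pooled shares hide a split by domain. Among the 141 of these members with a KRAB-like match, the ETS core stood in 19.9% and the RUNX core in 19.1%. Their NRF1 share of 3.55% and GC box share of 30.5% lay below those of the table. Members also had a median of 11 CpG in these bases against 6, and a median of 54% G and C against 52%. These shares were not tested, and paralogs that arose by duplication can share promoter sequence. Every member had at least 20 counts in every library, while the 27025 genes were taken whether or not these cells expressed them. The differences therefore cannot be ascribed to the Zfp-named genes as against expressed genes of any name.

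Of 13 genes listed for a role in lymphocytes, 10 were members, of which none rose and 2 fell, Zfp318 and Zfp281. This is 20% of the 10, beside 8.49% of all genes tested. The median absolute log2 fold change of these 10 was 0.41, beside 0.16 for all members. The list was chosen with earlier results of these data known, so this difference cannot be read as a trait of such genes. It was not tested. Zfp608, which represses the recombinase genes in mouse thymocytes, had 15.1 and 11.9 CPM in Tfh T32 and T53, against 4.40 and 8.89 CPM in non-Tfh T32 and T53. Its groups did not overlap, but the non-Tfh libraries were far apart, and the log2 fold change of 1.06 ± 0.36 did not pass (SE, adjusted p = 0.147 by edgeR). Without non-Tfh T53 it did (adjusted p = 0.0178, from 0.0178 to 0.42 over the fits that left out a library). Zfp609, its paralog, was at 18.5 and 24.5 CPM in the Tfh libraries and 21.4 and 26.3 CPM in the non-Tfh libraries, and overlapped.

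Zfp831 had the highest CPM of the Zfp-named genes, with 377 and 434 CPM in Tfh T32 and T53, against 244 and 332 CPM in non-Tfh T32 and T53. The groups lay apart, but the log2 fold change of 0.50 ± 0.18 did not pass (SE, adjusted p = 0.166 by edgeR), and of the fits that left out a library it passed only in the one without non-Tfh T53 (adjusted p = 0.0489, from 0.0489 to 0.493 over those fits). Zfp91, a ubiquitin ligase of the noncanonical NF-kappaB pathway, had 243 and 272 CPM in Tfh T32 and T53, against 195 and 215 CPM in non-Tfh T32 and T53, a log2 fold change of 0.33 ± 0.13 (SE, adjusted p = 0.192 by edgeR). Zfp335, which mouse T cells need to mature after leaving the thymus, was at 82.6 and 79.1 CPM in the Tfh libraries and 80.2 and 85.0 CPM in the non-Tfh libraries. Zfp384, a gene fused in human B cell leukaemias, averaged 64.6 ± 8.6 CPM in Tfh and 62.6 ± 7.1 CPM in non-Tfh cells (SD, n = 2 each). Zfp148 averaged 140 ± 5.9 CPM in Tfh and 156 ± 8.9 CPM in non-Tfh cells, and Zfp395 had 5.54 and 11.2 CPM in the Tfh libraries and 11.04 and 12.5 CPM in the non-Tfh libraries. The other 3 genes of the list were not members because they were barely or not detected. Zfp683, which encodes Hobit, a factor of tissue-resident memory T cells, had 0 and 0 counts in Tfh T32 and T53 and 1 and 2 counts in non-Tfh T32 and T53.

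None of the 10 members that act on RNA or ribosomes passed, and their median log2 fold change was -0.07. With 8.49% of all genes tested called, a list of this size can hold no call without differing from them. Zfp207, a spindle assembly protein that also binds RNA, had 331 and 288 CPM in Tfh T32 and T53, against 327 and 325 CPM in non-Tfh T32 and T53. Zfp106, an RNA-binding protein needed by motor neurons, had 235 and 263 CPM in the Tfh libraries and 208 and 224 CPM in the non-Tfh libraries, and lay slightly apart (log2 fold change 0.21 ± 0.12, adjusted p = 0.407 by edgeR). Zfp638 had 196 and 214 CPM in the Tfh libraries and 207 and 237 CPM in the non-Tfh libraries. Zfp346, which binds double-stranded RNA, had the largest change of the list, with 49.7 and 54.9 CPM in Tfh T32 and T53, against 32.1 and 42.4 CPM in non-Tfh T32 and T53. Its log2 fold change of 0.49 ± 0.17 had an adjusted p of 0.150 in the edgeR fit, and 0.0462 without non-Tfh T53, the lowest of a range from 0.0462 to 0.463. Of those that act on ribosomes, Zfp598, which senses collided ribosomes, and Zfp622 and Zfp593, which act on the large subunit, lay between -0.32 and -0.21 in log2 fold change, all with an edgeR adjusted p over 0.05.

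None of the 4 members known in mouse for silencing retroelements or imprinted genes passed either. They are too few to set against the 8.49% called among all genes tested. Zfp809, which recognises the primer binding site of retroviruses, averaged 12.8 ± 0.716 CPM in Tfh and 15.5 ± 0.782 CPM in non-Tfh cells (SD, n = 2 each). Zfp932, Zfp568 and Zfp708 averaged 36.9 ± 2.43, 25.3 ± 0.803 and 4.94 ± 0.932 CPM in Tfh cells, and 31.2 ± 3.07, 25.2 ± 3.44 and 5.25 ± 0.0494 CPM in non-Tfh cells. For Zfp708, 94.3% of the 75-base words of its transcripts also occur in other genes, and for Zfp932 26.4%, so their counts are uncertain. In all, 20 members shared at least 20% of such words with other genes, and none of them passed, beside 8.49% of all genes tested. Of the 224 members that shared under 5%, 8 passed (3.57%). The called gene Zfp652 is not among these 224, so its counts are less certain in this respect too.

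Of 11 members that work in chromatin complexes, Zfp518b rose and the other 10 did not pass. This share of 9.09% is near the 8.49% of all genes tested. Its paralog Zfp518a had 76.1 and 71.0 CPM in Tfh T32 and T53, against 69.6 and 67.3 CPM in non-Tfh T32 and T53, and the difference between the 2 paralogs was not tested. Zfp644, a partner of G9a, averaged 116 ± 7.2 CPM in Tfh and 133 ± 14.3 CPM in non-Tfh cells (SD, n = 2 each). Zfp217, a part of CoREST-type corepressor complexes, had 192 and 208 CPM in the Tfh libraries and 211 and 233 CPM in the non-Tfh libraries. Zfp592 and Zfp687, partners of Zmynd8, had log2 fold changes of -0.16 ± 0.14 and -0.21 ± 0.14 (SE). Of 4 members that activate promoters, none passed, but 4 genes are too few to set against the 8.49% of all genes tested. Zfp143 had 33.3 and 31.1 CPM in Tfh T32 and T53, against 40.0 and 40.2 CPM in non-Tfh T32 and T53, a log2 fold change of -0.31 ± 0.13 (SE, adjusted p = 0.224 by edgeR), while its relative Zfp523 rose, and the difference between the changes of these genes was not tested. Zfp410, an activator of Chd4, had 36.3 and 37.1 CPM in Tfh T32 and T53, against 33.1 and 26.9 CPM in non-Tfh T32 and T53 (log2 fold change 0.29 ± 0.15, adjusted p = 0.352 by edgeR).

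Proteins translated from the annotated coding sequences separated the members by domain. At least 1 finger motif was found in 271 of the 275 members with a coding sequence. The 4 without one, Zfp365, Zfp703, Zfp330 and Zfp935, were named after their values had been seen; all 4 had positive log2 fold changes, from 0.18 to 0.48, and none passed. A KRAB-like match stood before the first finger in 159 members, and the same search matched 1.65% of coding genes without fingers. Of these 159 members 2 were called (1.26%), both higher, against 7 of the 116 without a match (6.03%), 3 higher and 4 lower. Among all genes tested 8.49% were called, and among those with the same minimum count 7.29%. The KRAB-like members had a median log2 fold change of -0.01 and the others of -0.03, with quartiles of -0.16 and 0.16 for the KRAB-like members. The KRAB-like members were less abundant, with a median of 14.2 CPM against 33.0 CPM and, per kilobase of exon, 3.75 CPM against 5.97 CPM, and the difference in share called was not tested. A SCAN-like match, a domain through which such proteins pair, stood in 11 members. None of these was called, and 11 genes are few to set against the 8.49% of all genes tested.

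The calls were also counted by the number of finger motifs. With 1 to 5 finger motifs there were 50 members and 5 calls, with 6 to 10 there were 83 members and 3 calls, with 11 to 15 there were 87 members and 1 call, and with 16 or more there were 51 members and no call. In percent, these shares are 10, 3.61, 1.15 and 0, beside 8.49 over all genes tested. Per kilobase of exon, the median CPM of these bins was 5.39, 4.78, 4.26 and 3.78. Without division by exon length it was 27.60, 19.65, 20.95 and 24.53 CPM. The median SE of the log2 fold change was 0.1668, 0.1772, 0.1783 and 0.1643, lowest in the bin with no call. The trend in share called was not tested. At an unadjusted p under 0.05 the 51 members with the most fingers had 7, the middle bins 8 of 83 and 8 of 87, and the bin with the fewest fingers 13 of 50, beside 22% of all genes tested.

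None of the 34 genes listed for the corepressor machinery of KRAB proteins was called, beside 8.49% of all genes tested, and their median log2 fold change was -0.04. Taken without adjustment, 3 of them had a p under 0.05, beside 22% of all genes tested. Trim28, the KRAB-binding scaffold, had 156 and 146 CPM in Tfh T32 and T53, against 170 and 149 CPM in non-Tfh T32 and T53. Setdb1 had 89.1 and 92.7 CPM in the Tfh libraries and 91.2 and 94.0 CPM in the non-Tfh libraries, and these overlapped. The largest change on the list, named after its values were seen, was that of the histone chaperone Daxx, with 89.4 and 58.9 CPM in Tfh T32 and T53, against 134 and 108 CPM in non-Tfh T32 and T53 (log2 fold change -0.70 ± 0.22, adjusted p = 0.123 by edgeR). Of 24 genes named for the SCAN domain, 17 could be tested and none was called.

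Along the genome, 110 members lay in runs of at least 5 Zfp-named genes no more than 200 kb apart. Of them 1 was called (0.909%), against 8 of the 167 outside such runs (4.79%). Members in runs were less abundant, with a median of 15.4 CPM against 24.9 CPM and, per kilobase of exon, 3.54 CPM against 5.41 CPM. Their median SE was larger, 0.19 against 0.16, and the difference in share called was not tested. Among all genes tested 8.49% were called, and among those with the same minimum count 7.29%. Chromosome 7 held the most members, 62, of which none was called, beside 9.1% of all genes tested on that chromosome. Their median was 14.0 CPM against 20.3 CPM for those genes. Chromosome 17 held 38 members, of which 3 were called (7.89%), beside 5.98% of all genes tested there. Chromosome 13 held 30 members, of which none was called, beside 6.97%. These chromosome shares include genes under the minimum of 20 counts, and the differences were not tested. The run with the most members, at chr13:67038596-67827002, held 21 members with a median log2 fold change of -0.12, of which 16 were negative and none was called. The Tfh libraries lay above the non-Tfh libraries for 1 of the 21 and below for 6. At chr17:21383748-22456689, 9 of 15 members were positive, the Tfh libraries lay above the non-Tfh libraries for 7 of the 15 and below for 2, and none was called. Of the 602 genes tested on chromosome 17, 138 lay apart with Tfh above and 159 with Tfh below, and over all genes tested 26.6% and 25.6% did. At chr17:32765496-33394641, Zfp870 stood alone: its log2 fold change was 1.74, and the other 10 members of that run lay between -0.36 and 0.36. A run at chr7:29768552-30169750 held 10 members between -0.29 and 0.42. Neighbours in a run are paralogs that can share reads, so they are not independent of each other.

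**Figure D4:**
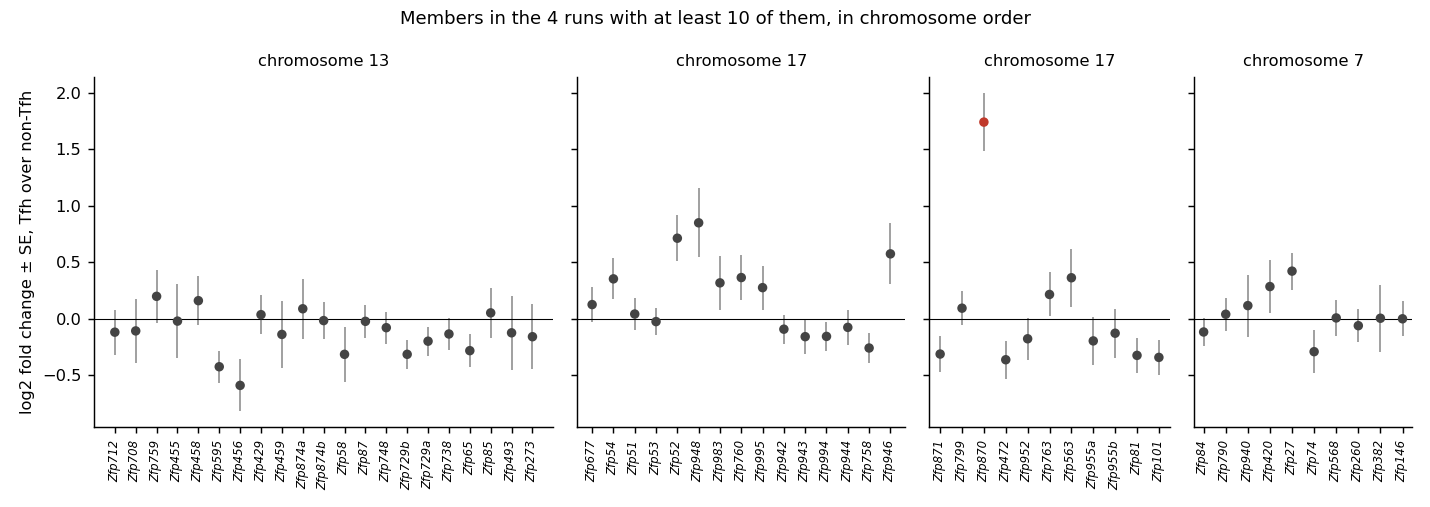
Log2 fold change of Tfh over non-Tfh with its SE (vertical axis) for the members of the 4 runs with at least 10 of them, in chromosome order (horizontal axis). Zfp870, in red, is the only called member and stands at 1.74 among neighbours near 0, and most members of the chromosome 13 run lie below 0.

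The 8 members with the highest CPM were Zfp831, Zfp207, Zfp292, Zfp106, Zfp91, Zfp638, Zfp217 and Zfp488, and none of them was called. With 8.49% of all genes tested called, 8 genes are too few to set against that share. Zfp292 had 277 and 302 CPM in Tfh T32 and T53, against 287 and 345 CPM in non-Tfh T32 and T53. Zfp488, a regulator of oligodendrocytes, had 140 and 216 CPM in Tfh T32 and T53, against 144 and 227 CPM in non-Tfh T32 and T53. It was high in both T53 libraries and low in both T32 libraries, and its log2 fold change of -0.06 ± 0.30 (SE) gives the difference between the populations a wide error. Per kilobase of exon, which allows levels of different genes to be compared, Zfp207 led with 47.7 CPM, followed by Zfp488 with 42.2 and Zfp831 with 35.3, and the lowest member had 0.464.

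**Figure D5:**
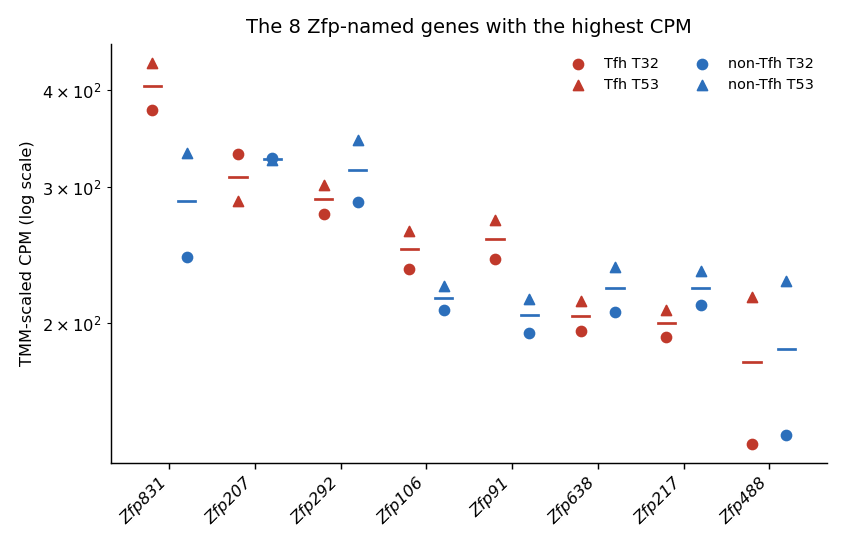
TMM-scaled CPM (log axis) of the 8 Zfp-named genes with the highest values in each library: Tfh in red and non-Tfh in blue, T32 as circles and T53 as triangles, with the group mean as a bar. Zfp831 is highest in Tfh T53 (434 CPM), and Zfp488 separates by library number and not by population.

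At the edge of the set, Zfp69 was just inside, with 20 counts in its lowest library. Zfp704, with 19 and 21 counts in Tfh T32 and T53 and 20 and 30 in non-Tfh T32 and T53, and Zfp784, with 43 and 19 in Tfh T32 and T53 and 42 and 48 in non-Tfh T32 and T53, were just outside. Of the 128 Zfp-named genes outside the set, 29 passed the filter on low counts and 41 had no count in any library. Zfp651 was the only gene outside the set with at least 20 counts in both libraries of 1 population and under 20 in both of the other. It had 54 and 27 counts in Tfh T32 and T53, or 4.53 and 4.72 CPM, and 12 and 7 counts in non-Tfh T32 and T53, or 0.895 and 0.788 CPM. It is given as values because the minimum in every library, which fixed the set, excluded it for its level in non-Tfh cells.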

How the data were processed

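RNA of 2 Tfh and 2 non-Tfh samples was sequenced in read pairs from stranded total RNA libraries, per the labels' protocols. The authors deposited raw read counts per Ensembl gene for 39179 identifiers; the submitters' processing notes name TopHat2, Bowtie2, HTSeq and GRCm38 (mm10), with no versions. GENCODE M21 gave symbols, positions and exon lengths for 37607 identifiers, and the other 1572 stayed in the library totals. Library totals of 5725358 to 13360563 counts set the precision.

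The whole table was fitted in R 4.3.3 with edgeR 4.0.16 (filterByExpr, TMM, robust quasi-likelihood fit with the group alone, 2 residual degrees of freedom, two-sided, Benjamini-Hochberg over 11702 genes at 0.05), and the script was tested on simulated data. SE was obtained by dividing the size of a log2 fold change by √F, F being the test statistic, and CPM is TMM-scaled. DESeq2 1.42.0, limma-voom (limma 3.58.1) and the other alternatives follow at the end.

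The members and the gene lists were chosen with earlier results of these data known, and the promoter motifs after seeing the values. Genes are named if called, among the 8 most abundant, on a role list, or at the edge of the threshold of 20 counts. Finger, KRAB-like and SCAN-like motifs were sought in proteins translated from GENCODE M21 coding sequences, a source chosen after the design was fixed. They are pattern matches, not annotated domains.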

Additional observations from a re-analysis of the deposited data

How the results depend on the processing

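With 5 members higher and 4 lower as reported, scaling by relative log expression or upper quartiles changed neither count. DESeq2 called 8 of the 9, losing Zfp280b (adjusted p = 0.0721). The count of members lower was 2 with limma-voom, with a minimum of 5 CPM in 2 libraries, without robust dispersions and without the mitochondrial and the 10 most abundant genes; in each of these Zfp281 and Zfp280b missed, with adjusted p from 0.0502 to 0.061, and in limma-voom Zfp839 did too (0.0634). Without a count filter 11 were higher and 7 lower, with Zfp831, Zfp608 and Zfp346 among the added calls (adjusted p = 0.0148, 0.00137 and 0.0282). With at least 50 counts in every library as the rule, 212 genes met it, 2 of them called higher, with a median log2 fold change of -0.0304; Zfp316, Zfp518b and Zfp870 then fall outside by construction. The cause of the other shifts was not tested.

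Leaving out 1 library assumes that the lone sample varies like the other group. The count of members higher then ran from 2 to 7, the count lower from 1 to 2, and the median log2 fold change of members from -0.07 to 0.0150. Zfp568 turned to -0.0011 with relative log expression and -0.0015 in DESeq2. These uncalled genes changed sign when a library was left out, with ranges of log2 fold change from -0.13 to 0.15 for Zfp568, -0.39 to 0.30 for Zfp488, -0.35 to 0.0443 for Zfp609, -0.28 to 0.0945 for Zfp708, -0.40 to 0.15 for Zfp451, -0.18 to 0.0354 for Zfp207, -0.0682 to 0.0161 for Zfp335, -0.0801 to 0.18 for Zfp384, -0.22 to 0.13 for Zfp830, -0.37 to 0.80 for Zfp516, -0.25 to 0.0120 for Zfp292 and -0.0897 to 0.17 for Zfp131.

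With the library number as a replicate block, 11 members were called higher and 11 lower, among them all 9 reported and also Zfp831, Zfp91 and Zfp346 (adjusted p = 0.0129, 0.0349 and 0.0233), and 2116 genes in all against 994. No label says that the numbers pair the samples. The deviations of equally numbered libraries from their group means correlated at 0.37 over all genes tested and 0.32 over the members, which with 2 pairs does not show a pairing. The smallest library, Tfh T53, where 1 count is worth 0.175 CPM, limits the precision of the least abundant members.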
